A study of Mus musculus with 564 samples.

Results

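Macrophages that had met lipopolysaccharide (LPS) for 4 h were compared with unstimulated (UT) macrophages, both in the presence of the vehicle DMSO alone. The comparison rests on 4 libraries of the 564 in the series, 2 LPS 4 h and 2 UT, chosen by their labels, and covers all 59190 putative cis-regulatory elements of the deposited table. The cells were bone marrow-derived macrophages (BMDMs) of male wild type C57/BL6 mice, given DMSO for 1 h and then either LPS at 10 ng/mL for 4 h or no stimulus. Genotype, vehicle and cell type were shared by both groups, and the UT libraries carry time 0 in their names but 4 h without stimulus in their treatment label. Nothing in the labels tells whether the 2 libraries of a group came from separate animals or cultures. The p-values therefore measure a spread between libraries of a group, which may be technical. That spread was pooled over the 10 DMSO libraries of UT and LPS, all times included, and moderated across elements. The mark measured was acetylation of lysine 27 of histone H3 (H3K27ac), by ChIP-seq.

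H3K27ac is written by the acetyltransferases p300 and CBP at active promoters and enhancers, and its level at an element follows the activity of that element. LPS, a component of the outer membrane of Gram-negative bacteria, is sensed by TLR4. The receptor signals through the adaptors MyD88 and TRIF to NF-kB, to AP-1 via MAP kinases and to IRF3, which together switch on inflammatory genes and the gene of interferon beta. Interferon beta leaves the cell, binds its receptor on the same and neighbouring cells, and through Janus kinases and a complex that contains IRF9 acts on promoters that hold an interferon-stimulated response element (ISRE). LPS also silences part of the program of resting macrophages, in which PU.1 and C/EBP factors hold enhancers open.

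The promoters at which these motifs stand next to a large difference are shown first. They are the RefSeq windows (GRCm38.p6) of genes named below, limited to the 250 bases before the transcription start and written 5′ to 3′ in the direction of the gene. Capitals mark exact matches, on either strand, to the ISRE (GAAA, any 2 bases, GAAA), NF-kB (GGG, any 2 bases, TTTCC), AP-1 (TGANTCA), C/EBP (TTGCNNAA), MAF (TGC and then the AP-1 letters, so that each MAF match contains an AP-1 match) and TFE/MITF (TCACGTGA) motifs. Ifit1 had the largest rise among promoters of the antiviral list, Cxcl10 combines interferon and inflammatory input, Il6 had the largest rise in the inflammatory cytokine list, Tnfaip3 encodes the NF-kB inhibitor A20, and Cxcl3 holds an NF-kB motif but was lower at 4 h.
Ifit1, chr19:34640639-34640888, plus strand: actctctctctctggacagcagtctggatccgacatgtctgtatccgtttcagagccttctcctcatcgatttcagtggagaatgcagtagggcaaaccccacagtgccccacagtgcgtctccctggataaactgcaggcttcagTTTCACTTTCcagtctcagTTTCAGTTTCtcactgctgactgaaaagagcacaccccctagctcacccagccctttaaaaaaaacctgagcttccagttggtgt
Cxcl10, chr5:92348890-92349139, minus strand: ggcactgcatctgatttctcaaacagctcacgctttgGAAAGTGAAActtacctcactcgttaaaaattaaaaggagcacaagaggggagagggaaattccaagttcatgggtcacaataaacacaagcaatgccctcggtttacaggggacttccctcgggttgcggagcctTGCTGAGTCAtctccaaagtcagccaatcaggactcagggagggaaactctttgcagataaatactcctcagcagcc
Il6, chr5:30012864-30013113, plus strand: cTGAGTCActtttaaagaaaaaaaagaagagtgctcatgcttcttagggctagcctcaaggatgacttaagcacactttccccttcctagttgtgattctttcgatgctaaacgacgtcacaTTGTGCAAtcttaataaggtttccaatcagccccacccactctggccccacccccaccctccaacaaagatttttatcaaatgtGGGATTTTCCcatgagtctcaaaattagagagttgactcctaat
Tnfaip3, chr10:19015411-19015660, minus strand: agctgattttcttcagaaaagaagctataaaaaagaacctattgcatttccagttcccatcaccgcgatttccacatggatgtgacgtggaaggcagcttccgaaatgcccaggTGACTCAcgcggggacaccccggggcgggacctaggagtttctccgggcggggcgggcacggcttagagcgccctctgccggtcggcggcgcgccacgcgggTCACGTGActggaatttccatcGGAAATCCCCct
Cxcl3, chr5:90785851-90786100, plus strand: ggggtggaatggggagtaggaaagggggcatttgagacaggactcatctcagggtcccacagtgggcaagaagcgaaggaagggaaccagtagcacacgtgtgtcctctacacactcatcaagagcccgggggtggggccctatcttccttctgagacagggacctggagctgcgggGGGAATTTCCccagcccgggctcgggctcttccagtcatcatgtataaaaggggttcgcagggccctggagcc
The Ifit1 promoter held a pair of ISREs, 104 to 95 and 85 to 76 bases upstream of the start. That of Cxcl10 held an ISRE 213 to 204 bases and overlapping MAF and AP-1 motifs 77 to 68 bases upstream. Il6 had an AP-1 motif at 249 to 243, a C/EBP motif at 128 to 121 and an NF-kB motif at 44 to 35 bases upstream. Tnfaip3 had an AP-1 motif at 136 to 130, a TFE/MITF motif at 34 to 27 and an NF-kB motif at 12 to 3 bases upstream, and Cxcl3 a single NF-kB motif at 73 to 64. Among 32851 RefSeq windows of the same length, 2.98% held an ISRE, 1.41% the NF-kB, 6.75% the AP-1, 9.56% the C/EBP, 0.353% the MAF and 0.785% the TFE/MITF letters. Of 17 promoter genes named by rule in the interferon, cytokine, chemokine, NF-kB and macrophage lineage lists, 13 had a RefSeq window. The windows of Ifnb1, Jak2 and Traf1, which were called higher, of Cebpb, also higher, and of Ifngr1, Cebpa and Tgfbr1, which were called lower, held none of the motifs searched, and that of Traf1 lies outside the element called at its inner start. The window of Irf2 held an ISRE, a STAT (TTCNNNGAA), a C/EBP and an NF-kB motif, but belongs to the upstream start and lies outside the inner element that was called lower. A large difference therefore stood beside promoters with and without these letters, and no match says only that the letters are not in this window.

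Values are read counts per element as scaled and rounded by the authors, called normalized reads here, so that their totals do not give the sequencing depth, which is unknown for these libraries. The study's methods describe counting reads in a window of fixed size around each summit of open chromatin, whereas the widths of the listed elements vary, and which span was counted could not be checked. The totals were 6026286 and 5923684 in UT and 6873668 and 6387295 at LPS 4 h. Replicates correlated across elements with r = 0.982 in UT and 0.968 at LPS 4 h, and the difference between replicates on the log2 scale had an SD of 0.354 and 0.456 across elements. The promoters of all 9 macrophage markers carried an element, with summed values of 7985 and 7904 in UT and 8189 and 7402 at LPS 4 h. None of the 8 T and NK cell, 6 B cell and 5 erythroid markers had one at its start. Of 8 neutrophil markers 3 had an element, with sums of 201 and 182 in UT and 352 and 215 at LPS 4 h. Among these, Camp rose at LPS 4 h by 3.97 on the log2 scale, as given below. Elane, Mpo, Ngp and Ly6g had no element. Single elements of the dendritic cell (Flt3), mast cell (Gata2) and stromal (Pdgfrb) lists reached at most 21 normalized reads, except Pdgfrb with 70 and 71 at LPS 4 h. The part of such cells in the differences was not tested.

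H3K27ac differed at many elements in both directions. An element was called when the Benjamini-Hochberg adjusted p of the limma model was under 0.01 and the log2 difference, LPS 4 h minus UT on log2(value + 5), was over 1 in size. By this rule 10386 of 59190 elements (17.5%) were higher and 7950 (13.4%) were lower. The split depends on the scaling. After scaling to equal totals 9395 were higher and 9361 lower, and after quantile normalization 8849 and 9182. Because of the added 5, a log2 difference understates the change of weak elements. Errors of log2 differences are standard errors (SE). The median difference over all elements was 0.0877 as deposited, and fell by 0.12 after scaling to equal totals and by 0.16 after quantile normalization, so log2 differences are to be read against a shift of this size.

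**Figure D1:**
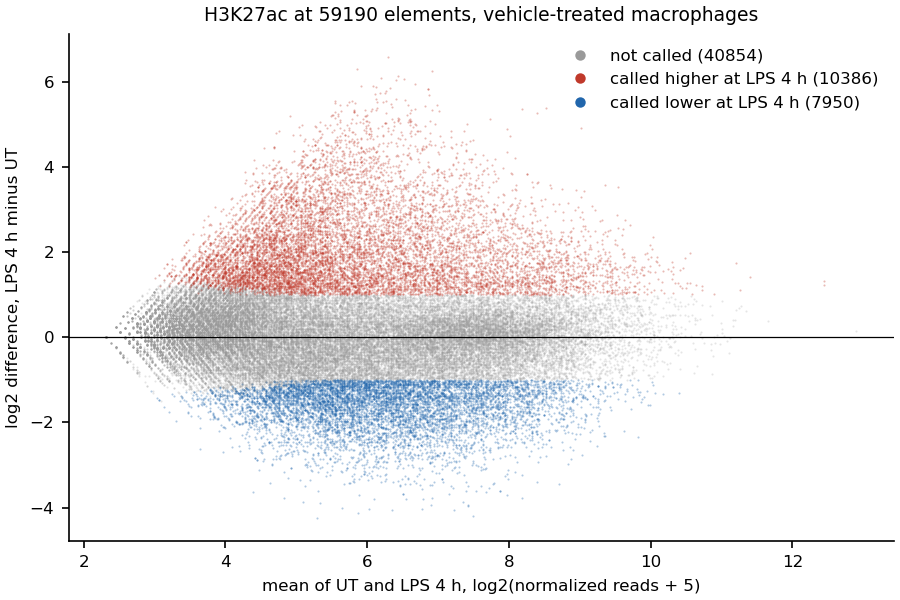
Each point is 1 of 59190 elements, with its mean level in UT and LPS 4 h on the x axis (log2 of normalized reads plus 5) and the log2 difference, LPS 4 h minus UT, on the y axis. Red points are the 10386 elements called higher and blue points the 7950 called lower; rises reach 6.58 and falls reach -4.24.

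Elements that rose were mostly weak before LPS. Their median level was 17.5 normalized reads in UT and 104 at LPS 4 h, and 3374 of them (32.5%) had a UT mean under 10. Elements that fell started high, with a median of 126 in UT against 36.5 at LPS 4 h. In both sets the levels had moved early, with medians at 30 min, 1 h and 2 h of 44.5, 70.5 and 100 for elements called higher and 56.5, 44.0 and 32.5 for those called lower. As deposited, the rises were larger than the falls, with medians of 1.84 and -1.54 on the log2 scale. Scaling to equal totals and quantile normalization shifted the median of all elements by -0.12 and -0.16. The medians of rises and falls were not recomputed under them. A difference over 2 was reached by 4475 elements called higher and 1743 called lower. After IL-4 for 4 h the same elements had medians of 21.5 and 107, close to the UT levels.

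Promoters changed less often than elements away from them. Of the 11034 elements that overlap the start of a protein-coding gene, 831 (7.53%) were higher and 900 (8.16%) were lower, against 19.8% and 14.6% of the 48156 others. Promoter elements were also stronger, with a median UT level of 155 normalized reads against 25 elsewhere. The share called higher was 21.1% among intergenic elements, 19.6% among intronic, 17.2% among exonic and 16.5% among those in untranslated regions. It grew with distance, from 7.24% of elements with a centre up to 1 kb from a start to 22.3% of those over 100 kb away, and the share called lower grew from 7.79% to 16.8%.

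The largest rises were all intergenic and started from almost no signal. An element 75.2 kb from the start of Jak2, the kinase of several cytokine receptors, at chr19:29175791-29177514, had 1 and 2 normalized reads in UT, and 584 and 435 at LPS 4 h (6.30 ± 0.19, adjusted p = 1.73e-20). It had already reached 145 and 220 at 30 min, and in cells given IL-4 for 4 h it stood at 2 and 5. A second element of the same locus at chr19:29184543-29186564 went from 7 and 1 to 533 and 469 (5.90 ± 0.21, adjusted p = 2.61e-19). Both lay far above UT in both replicates, as no overlap between groups was a condition for naming these elements. The element 10.0 kb from Ptges, which encodes the inducible prostaglandin E synthase, at chr2:30912354-30914260 rose from 11 and 1 to 701 and 662 (6.13 ± 0.25, adjusted p = 3.35e-18). A neighbouring pair, chr18:74869000-74870984 and chr18:74874855-74877528, lay 90.8 kb and 85.1 kb from the starts of Acaa2 and Lipg and rose later. The first of these had 3 and 3 normalized reads in UT, 3 and 9 at 30 min, 86 and 119 at 1 h and 840 and 686 at 4 h (6.58 ± 0.25, adjusted p = 8.27e-19), the largest log2 rise of all elements. The remaining 5 of the 10 largest rises were nearest to Gm5426, Mrpl39, Lad1, Stk31 and Itgb8, with log2 differences between 5.89 and 6.09. Of these, the element near Stk31 (chr6:49499583-49503814) has a further copy in mm10 for 20.2% of its stretches of 51 bases, the length of the mapped reads.

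Ranked by normalized reads rather than by log2 difference, other elements came first. At the gene of the chemokine Ccl5 an element listed with a width of 7793 bp (chr11:83529723-83537515) rose from 98 and 80 to 2937 and 2713, which is 4.92 ± 0.10 on the log2 scale (adjusted p = 1.11e-24). The element over the start of Pgs1 at chr11:117985994-117994534, in the neighbourhood of Socs3, rose from 1361 and 1211 to 4380 and 4144 (1.73 ± 0.07, adjusted p = 3.01e-18). The others were at Mid1 (chrX:169978080-169982060) and at Gm10717 and Gm11168 on chromosome 9, where 53.7%, 79.2% and 83.5% of all stretches of 51 bases have a further copy in mm10, so the values depend on how repeated reads were placed. At Gm10717 (chr9:3021693-3028368) UT had 4505 and 2647 and LPS 4 h 9297 and 7848, and IL-4 for 4 h gave 10376 and 4654. With quantile normalization this element and that at Gm11168 gave 0.80 and 0.14 and lost their call. Without UT replicate 2 this element and that at Gm11168 (chr9:3000048-3009316) lost it too, with log2 differences of 0.92 and 0.85.

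The 10 largest falls lay away from promoters, in introns, in exons, in an untranslated region and between genes. In an intron of Slco2b1, a transporter gene, an element at chr7:99673549-99675934 had 776 and 749 normalized reads in UT, 114 and 106 at 30 min, and 44 and 31 at LPS 4 h (-4.19 ± 0.29, adjusted p = 6.57e-13). An element 259 kb from Cxcl12 (chr6:117427203-117428866) had the largest fall of all, from 169 and 159 to 5 and 3 (-4.24 ± 0.38, adjusted p = 1.37e-10). Over an exon of Sgsh, which encodes a lysosomal sulfatase, the level went from 238 and 242 to 10 and 8 (-4.13 ± 0.26, adjusted p = 6.75e-14). All 3 had lost most of their signal. The other 7 of the 10 largest falls were nearest to Tbc1d9, Lcn4, Zfyve28 (a pair), Cask, Samd4 and Pex5, between -4.06 and -3.95. In normalized reads the largest losses were in an intron of Arhgap22 (1996 and 2053 to 451 and 347) and at elements nearest to 6430531B16Rik, Ctsd, Zfp36l2 and Tbc1d22a.

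Elements were also counted by their nearest protein-coding start, and the genes with the most called elements are given, to be read against the 17.5% higher and 13.4% lower over all elements. Lpp had 38 elements called higher of 56, and Tnfaip3, which restrains NF-kB, had 34 of 36. Next came Zeb2 (30 of 62), Ext1 (29 of 37), Nfkbiz (26 of 38), Cited2 (22 of 68), Klf6 (22 of 47), and Etv6, Runx1 and Slco3a1 (21 each). Opposite calls were few at most of these genes, with 8 elements called lower at Cited2, 4 at Runx1 and 2 each at Zeb2 and Klf6. The genes with most elements called lower were Zfp36l2, an RNA-binding regulator of mRNA decay (31 of 38), Irf2bp2 (23 of 26), Tomm20 (21 of 26), Nrp1 (17 of 40) and Zfp386 (16 of 56), followed by Chn2, Klf4, Lhfpl2, Mthfs and Snx9 with 15 each. Zfp36l2 also had 3 elements called higher, Nrp1 had 5 and Chn2 had 1. Klf4 encodes a transcription factor of monocytes and macrophages. A nearest start does not show that an element acts on that gene, and genes in wide intergenic space collect more elements.

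Gene lists were read at promoters, with 1 element per gene, the one that overlaps a start of the gene and lies nearest to it. Of the list genes with such an element, 19 of 376 had a further element over another start. The background for these counts is the 7.53% called higher and 8.16% called lower among all promoter elements. Counts over all elements nearest to the genes of a list include the promoters, and their background is the 17.5% and 13.4% over all elements.

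**Figure D2:**
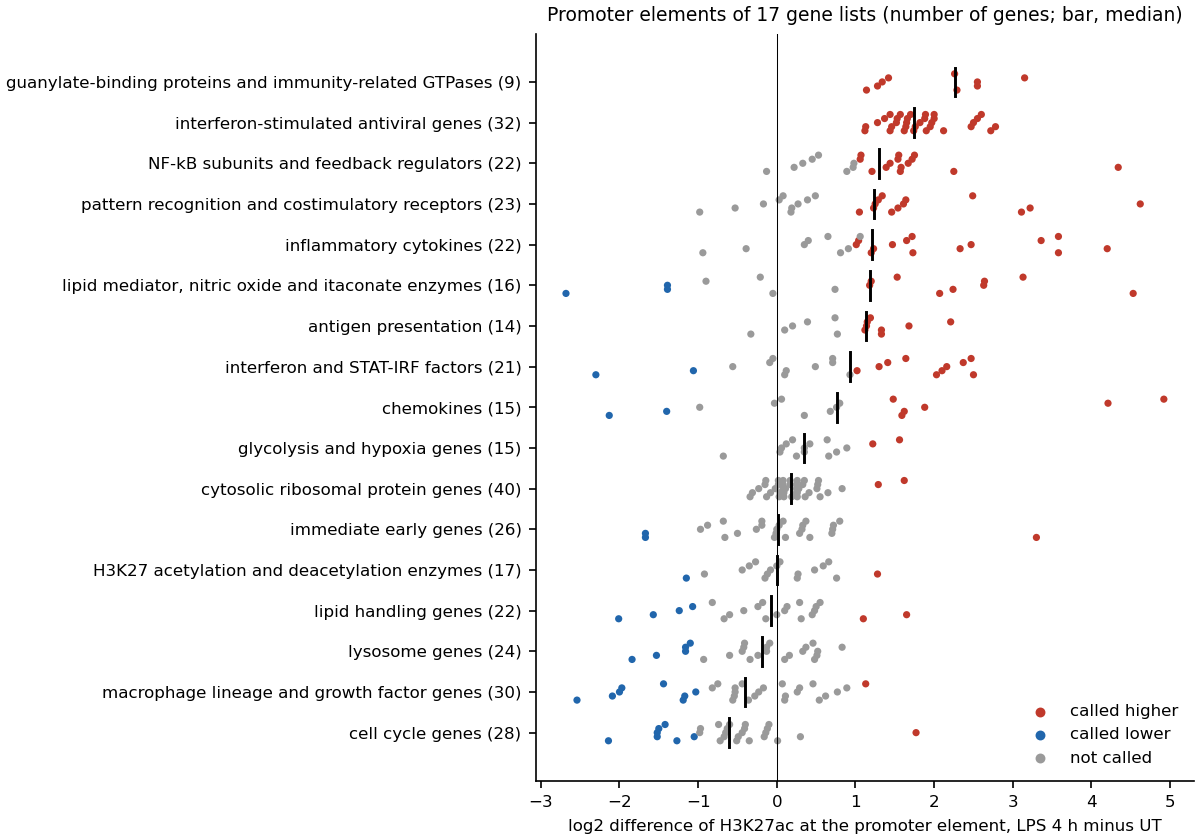
Each point is the promoter element of 1 gene, placed by its log2 difference (LPS 4 h minus UT) in 1 of 17 gene lists, with the number of genes in parentheses and the list's median as a black bar. All points of the upper 2 lists are red (called higher), while the cell cycle, lineage and lysosome lists have medians of -0.61, -0.40 and -0.19.

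Interferon-stimulated antiviral genes rose throughout. Of 34 genes, 32 had a promoter element and all 32 were called higher, with a median of 1.75 and a range from 1.12 (Trim21) to 2.78 (Ifit1). The list includes Ogfr (1.37 ± 0.13), which the study presents as induced by LPS without dependence on interferon. Ifit1, whose product binds foreign RNA caps, had 109 and 84 normalized reads in UT and 738 and 635 at LPS 4 h (2.78 ± 0.15, adjusted p = 2.46e-15). Zbp1, a sensor of Z-form nucleic acid, had 265 and 211 in UT and 1817 and 1391 at LPS 4 h (2.72 ± 0.13, adjusted p = 1.20e-16). In both the LPS values lay well above UT. The early course was flat or downward at many of these promoters. Mx1, a dynamin-like antiviral GTPase, had 326 and 277 in UT, 147 and 172 at 30 min, 572 and 464 at 1 h and 1950 and 1636 at 4 h. By mean, 15 of the 32 had their lowest level at 30 min and 17 in UT, and the highest was at 2 h in 25 and at 4 h in 7. Elements nearest to any of the 34 genes, promoter or not, were called higher in 79 of 126 (62.7%) and lower in 1.

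The guanylate-binding proteins and immunity-related GTPases, which attack vacuoles of intracellular microbes, gave the same picture, with 9 of 9 promoter elements called higher and a median of 2.26. Gbp2 went from 192 and 194 to 1139 and 1169 (2.55 ± 0.11, adjusted p = 7.22e-18). Iigp1 went from 42 and 41 to 444 and 372 (3.15 ± 0.18, adjusted p = 1.11e-14), with 20.5% of the 51-base stretches of its element repeated. All 9 were highest at 2 h by mean.

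The factors that carry the interferon signal were mixed. Of 21 promoter elements, 10 were called higher and 2 lower. Ifnb1, the gene of interferon beta itself, had 31 and 30 normalized reads in UT, 472 and 423 at 1 h and 205 and 179 at LPS 4 h (2.47 ± 0.17, adjusted p = 3.13e-13), so its peak had passed. Jak2 rose from 235 and 255 to 1446 and 1376 (2.50 ± 0.09, adjusted p = 7.97e-19). The feedback inhibitors Socs1 and Socs3 rose by 2.16 and 2.37, Irf7 by 2.10, Stat2 by 1.64 and Irf1 by 1.30. The receptor subunits Ifnar1 and Ifnar2 gave -0.09 and 0.12 and were not called, and Ifngr1, a subunit of the interferon gamma receptor, fell by 1.06 from 485 and 540 to 268 and 219. Without LPS 4 h replicate 2 or UT replicate 2 the difference at Ifngr1 was -0.92 or -0.99 and was not called. At Irf2, a repressor of interferon responses, an element over an inner start (chr8:46792039-46793693) fell from 235 and 194 to 41 and 38 (-2.30 ± 0.26, adjusted p = 1.23e-08). The element over the upstream start of Irf2 (chr8:46738646-46742451) had 745 and 781 in UT and 952 and 1126 at LPS 4 h (0.44 ± 0.10) and was not called.

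Inflammatory cytokines had 14 of 22 promoter elements called higher and the other 8 not called, with a median of 1.21. Il6, the gene of a cytokine of fever and the acute phase, went from 30 and 31 to 686 and 611 (4.20 ± 0.15, adjusted p = 1.83e-19). Il27 rose from 185 and 185 to 2439 and 2120 (3.58 ± 0.09, adjusted p = 2.35e-22). Edn1, which encodes the vasoconstrictor endothelin 1, rose from 34 and 30 to 416 and 458 (3.58 ± 0.19, adjusted p = 2.41e-15). All 3 were separated from UT by an order of magnitude. Tnf was acetylated before LPS, with 602 and 601 in UT against 1227 and 1042 at LPS 4 h, a difference of 0.91 ± 0.10 that did not reach the threshold of size. At Il12b, a subunit gene of IL-12 and IL-23, most of the rise had been lost by 4 h, with 12 and 12 in UT, 232 and 212 at 1 h and 32 and 28 at 4 h (1.04 ± 0.23, adjusted p = 0.000353). Of the 189 elements nearest to these genes, promoters included, 135 (71.4%) were called higher and 4 lower, against 17.5% and 13.4% over all elements.

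Chemokines divided. Of 15 promoter elements 6 were called higher and 2 lower, with a median of 0.76. The counts depend on how a promoter is defined: with elements whose centre lies within 1 kb of a start, 2 of 10 were called higher and 2 lower, with a median of 0.21. After Ccl5 the largest rise was at Cxcl10, a T cell attractant, from 60 and 56 to 1233 and 1090 (4.21 ± 0.12, adjusted p = 1.38e-21). The neutrophil attractants differed in how much of their early rise was left. Cxcl2 had 97 and 88 normalized reads in UT, 498 and 481 at 30 min, 485 and 443 at 2 h and 395 and 316 at 4 h, still well above UT (1.88 ± 0.14, adjusted p = 1.32e-12). Cxcl1 had 23 and 20 normalized reads in UT, 165 and 147 at 30 min and 16 and 31 at 4 h, which overlaps UT (0.06 ± 0.25, adjusted p = 0.881). Cxcl3 had 39 and 30 in UT, 96 and 79 at 1 h and 8 and 12 at 4 h, below UT (-1.40 ± 0.28, adjusted p = 0.00013), at a low level. With 20 added before the log2 the difference at Cxcl3 was -0.86 and was not called. Ccl24, an eosinophil attractant of alternatively activated macrophages, went from 62 and 51 to 8 and 10 (-2.13 ± 0.33, adjusted p = 3.32e-06), and stood at 179 and 127 after IL-4.

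The NF-kB system had 14 of 22 promoter elements called higher and the other 8 not called, with a median of 1.30. Among the subunits, Nfkb1 rose by 1.58, Nfkb2 by 1.44, Relb by 1.21 and Rel by 1.06, while Rela gave 0.33 ± 0.11 and was not called. Of the inhibitors, Nfkbia rose by 1.57, Nfkbib by 1.72 and Nfkbie by 1.75, while Nfkbid, whose element also covers the start of Hcst, had 1785 and 1809 in UT and 1728 and 1562 at LPS 4 h (-0.13 ± 0.08) and was not called. Tnfaip3 went from 204 and 219 to 984 and 1062 (2.25 ± 0.10, adjusted p = 4.56e-17) at its upstream start. A wider element over another start of Tnfaip3 (chr10:18997399-19013563) went from 228 and 203 to 2707 and 2333 (3.52 ± 0.10, adjusted p = 4.1e-21). Traf1, an adaptor of TNF receptors, had the largest rise at an inner start, from 46 and 56 to 1224 and 1040 (4.34 ± 0.12, adjusted p = 1.83e-21), and at its upstream start gave 280 and 290 against 1509 and 1310 (2.28 ± 0.09, adjusted p = 5.14e-18). Together 145 of 222 elements nearest to these genes (65.3%) were called higher and 9 lower.

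Immediate early genes, which are induced within minutes, had few calls at 4 h. Of 26 promoter elements 1 was called higher and 2 lower, with a median of 0.01, and 12 of the 26 had been highest at 30 min. The median hides differences in both directions that were short of the threshold of size, with Myc at -0.97 ± 0.12, Fosb at -0.88 ± 0.20, Fos at -0.68 ± 0.12 and Jun at -0.66 ± 0.10, against Atf3 at 0.80 ± 0.11 and Junb at 0.72 ± 0.07. Maff had 95 and 82 normalized reads in UT, 772 and 802 at 30 min and 117 and 123 at 4 h (0.42 ± 0.14, adjusted p = 0.0159). Nr4a1, the gene of a nuclear receptor, had 76 and 75, then 315 and 427 at 30 min and 113 and 82 at 4 h (0.33 ± 0.19, adjusted p = 0.154). In both the 4 h libraries lay above UT by little, and a further element of Nr4a1 was called lower (-1.15 ± 0.21). The element called higher was that of Dusp2, which encodes a phosphatase of MAP kinases and stayed at its early level, from 100 and 93 in UT to 904 and 1037 at 30 min and 1006 and 976 at 4 h (3.30 ± 0.11, adjusted p = 3.20e-20). Klf2 fell by 1.67 from 233 and 229 to 71 and 67. Egr3, at low level, went from 25 and 32 to 6 and 5 (-1.67 ± 0.36), and with 20 added before the log2 it gave -0.92 and was not called.

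**Figure D3:**
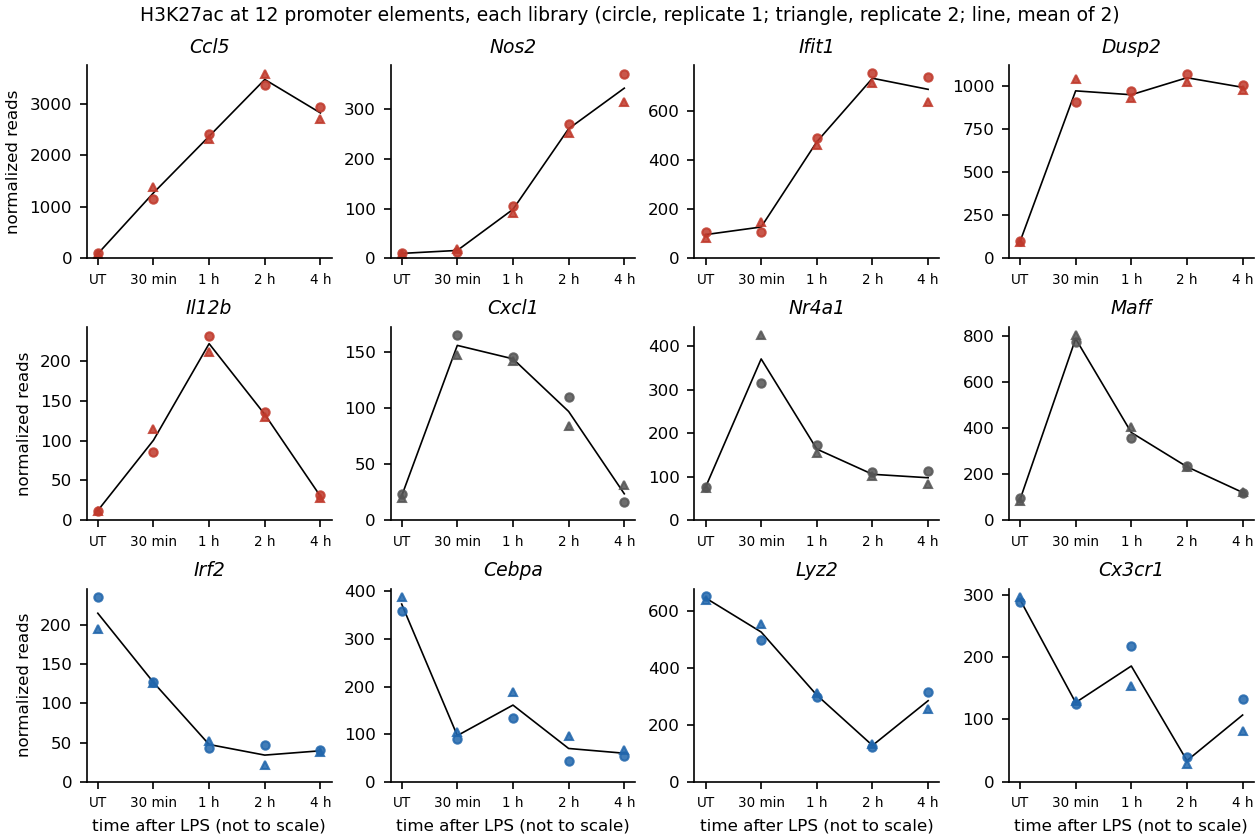
H3K27ac at the promoter elements of 12 genes in UT and 30 min, 1 h, 2 h and 4 h after LPS, in normalized reads from 0 (circle, replicate 1; triangle, replicate 2; line, mean of both; times evenly spaced). Red genes were called higher at 4 h against UT, blue genes lower and grey genes neither; Irf2 is shown at its inner start. Ccl5, Nos2 and Ifit1 stayed high at 4 h, Cxcl1, Nr4a1 and Maff had returned towards UT, and Lyz2 and Cx3cr1 were higher at 4 h than at 2 h.

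Enzymes of lipid mediators, nitric oxide and itaconate moved in both directions, with 9 of 16 promoter elements called higher and 3 lower. Nos2, the inducible nitric oxide synthase, went from 11 and 9 to 370 and 314 (4.53 ± 0.23, adjusted p = 3.55e-16). Slc7a2, an arginine transporter, went from 14 and 14 to 160 and 163 (3.13 ± 0.22, adjusted p = 5.55e-13) and was at 143 and 166 after IL-4. Ass1, which regenerates arginine from citrulline, rose by 2.64, and Acod1, which makes itaconate, by 1.53. The prostaglandin synthases went opposite ways. Ptgs2, the inducible form, rose from 42 and 46 to 295 and 300 (2.63 ± 0.17, adjusted p = 6.38e-14). Ptgs1, the constitutive form, fell from 161 and 141 to 14 and 26 (-2.68 ± 0.33, adjusted p = 6.84e-08). Gclm, of glutathione synthesis, fell by 1.39 from 243 and 249 to 87 and 95, and Alox5 by 1.39 from 62 and 34 to 16 and 13. The call at Alox5 was lost when any 1 LPS 4 h library (adjusted p of 0.0128 and 0.0328) or UT replicate 1 (adjusted p = 0.11) was left out.

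Among pattern recognition and costimulatory receptors 13 of 23 promoter elements were called higher and the other 10 not called. Fpr2, a receptor of formyl peptides whose element also covers the start of Fpr3, rose from 34 and 29 to 935 and 843 (4.62 ± 0.16, adjusted p = 7.32e-20). Cd40 rose from 98 and 80 to 917 and 818 (3.22 ± 0.12, adjusted p = 4.51e-19). Cd274, which encodes PD-L1, rose by 2.49 and Nod2 by 1.46, and an element over another start of Nod2 rose by 2.24 ± 0.11. Tlr4, the receptor of LPS, gave -0.98 ± 0.11 from 867 and 853 to 421 and 444, and its co-receptor Cd14 gave -0.53 ± 0.10, both short of the threshold of size. In antigen presentation 8 of 14 were called higher and the other 6 not called. The largest rises were at Nlrc5, the transactivator of MHC class I, from 175 and 208 to 944 and 864 (2.21 ± 0.12, adjusted p = 2.94e-15), and at Tapbp with 1.68. Tap1 and Psmb9, which share 1 element, rose by 1.33, while the class I genes H2-D1 and H2-K1 gave 0.74 and 0.77 and were not called. Of the class II genes, Cd74 and Ciita gave -0.33 and 0.10 and were not called, and H2-Ab1 rose by 1.14 from 39 and 35 to 125 and 61.

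At promoters, genes of the macrophage lineage lost acetylation more often than they gained it. Of 30 promoter elements 8 were called lower and 1 higher, with a median of -0.40. Over the 373 elements nearest to these genes, promoters included, 76 (20.4%) were called higher and 80 (21.4%) lower, with a median of 0.08. The C/EBP family members went apart. Cebpa, a lineage factor, went from 358 and 388 to 54 and 66 (-2.54 ± 0.24, adjusted p = 4.57e-10), and Cebpb, the inflammatory family member, from 432 and 430 to 990 and 905 (1.13 ± 0.10, adjusted p = 1.69e-10). Under equal totals and quantile normalization Cebpb gave 0.98 and 0.95 and lost its call. Tgfbr1, a receptor of TGF-beta, fell from 497 and 519 to 124 and 107 (-2.09 ± 0.15, adjusted p = 7.86e-13), Trem2 from 1072 and 1061 to 297 and 232 (-2.0 ± 0.16), and the mannose receptor gene Mrc1 from 285 and 279 to 71 and 66 (-1.97 ± 0.22). Cx3cr1, Lyz2 and Mertk fell by between 1.03 and 1.44. Csf1r, the receptor of macrophage colony-stimulating factor, gave -0.75 ± 0.09, from 1794 and 1744 to 1095 and 1006, and Spi1, the gene of PU.1, gave 0.77 ± 0.08, neither called. Runx1 was called lower at its distal start, from 1126 and 1138 to 536 and 466 (-1.17 ± 0.12), and not at its other start (0.46 ± 0.11).

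Lipid and lysosome genes showed smaller shares. In lipid handling 4 of 22 were called lower and 2 higher. Apoe fell from 763 and 771 to 187 and 186 (-2.01 ± 0.16, adjusted p = 8.71e-12) and Rxra from 106 and 91 to 22 and 40 (-1.57 ± 0.29), while Fabp4 rose from 15 and 9 to 49 and 46 (1.65 ± 0.33) and Ch25h, the cholesterol 25-hydroxylase gene, from 119 and 120 to 257 and 265 (1.10 ± 0.16). Ch25h lost its call under equal totals (0.95) and median of ratios scaling (0.98). Among promoters of lysosome genes 5 of 24 were called lower and the other 19 not called. Of the 139 elements nearest to lysosome genes, 23 (16.5%) were called higher and 23 (16.5%) lower. Tfeb, a master regulator of lysosome genes, fell from 307 and 364 to 110 and 115 (-1.53 ± 0.24, adjusted p = 2.89e-06). Cd63 fell at one start from 85 and 89 to 17 and 25 (-1.84 ± 0.30), where 11.9% of the 51-base stretches are repeated, and gave -0.56 ± 0.15 at its other start, not called.

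Cell cycle genes had the lowest promoter median of the lists, -0.61, with 7 of 28 promoter elements called lower and 1 higher. Of the 114 elements nearest to these genes, promoters included, 28 (24.6%) were called higher and 21 (18.4%) lower. Ccnb2, a mitotic cyclin, went from 130 and 141 to 24 and 30 (-2.14 ± 0.23, adjusted p = 4.15e-09). Cdk1 went from 355 and 352 to 110 and 130 (-1.52 ± 0.18, adjusted p = 2.11e-08), and E2f2, Ccnd1, Top2a, Ccnb1 and Bub1 fell by between 1.05 and 1.52. Ccnd2, a D-type cyclin, was the exception, from 172 and 137 to 501 and 573 (1.77 ± 0.14, adjusted p = 1.14e-11). The proliferation marker Mki67 had 350 and 355 in UT and 340 and 369 at LPS 4 h, where the groups overlap (0.01 ± 0.12, adjusted p = 0.97).

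Of the remaining lists, glycolysis and hypoxia genes had 2 of 15 called higher, Pfkfb3 (1.56 ± 0.17) and the glucose transporter gene Slc2a1 (1.22 ± 0.16). At another start of Pfkfb3 an element had 270 and 279 in UT and 232 and 254 at LPS 4 h (-0.17 ± 0.14) and was not called. Cytosolic ribosomal protein genes had 2 of 40 called higher, Rps24 (1.62 ± 0.16) and Rpl24 (1.29 ± 0.12), with 10.4% and 7.35% of the 51-base stretches repeated, and the median of the list was 0.18 against 0.04 over all promoter elements. Enzymes and readers of H3K27 acetylation had 1 of 17 called higher, the acetyltransferase gene Kat2b (1.28 ± 0.13), and the gene of p300, Ep300, gave 0.26 ± 0.11. Camp, the cathelicidin gene in the neutrophil list, rose from 5 and 4 to 171 and 120 (3.97 ± 0.27, adjusted p = 4.54e-13), and Pdgfrb from 4 and 9 to 70 and 71 (2.75 ± 0.26).

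DNA motifs near the centre of an element were not used for any call. In the central 300 bases, an ISRE was found in 10.7% of elements called higher, 3.32% of those called lower and 5.14% of all elements. The NF-kB letters were in 6.76%, 1.13% and 2.80%, and the STAT motif (TTCNNNGAA) in 12.7%, 8.16% and 9.40%. PU.1 (GAGGAAGT) was ordered the other way, with 7.27% of elements called higher, 12.6% of those called lower and 9.11% of all. AP-1 was in 25.2%, 19.6% and 20.2%, and C/EBP in 18.2%, 15.7% and 14.7%. Outside promoters the ISRE was in 10.5% of elements called higher and 3.35% of those called lower, and PU.1 in 7.50% and 13.6%. Elements called higher had a median GC content of 45.7% in this window against 48.7% in those called lower. Exact letters are a coarse search, and these shares carry no test.

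**Figure D4:**
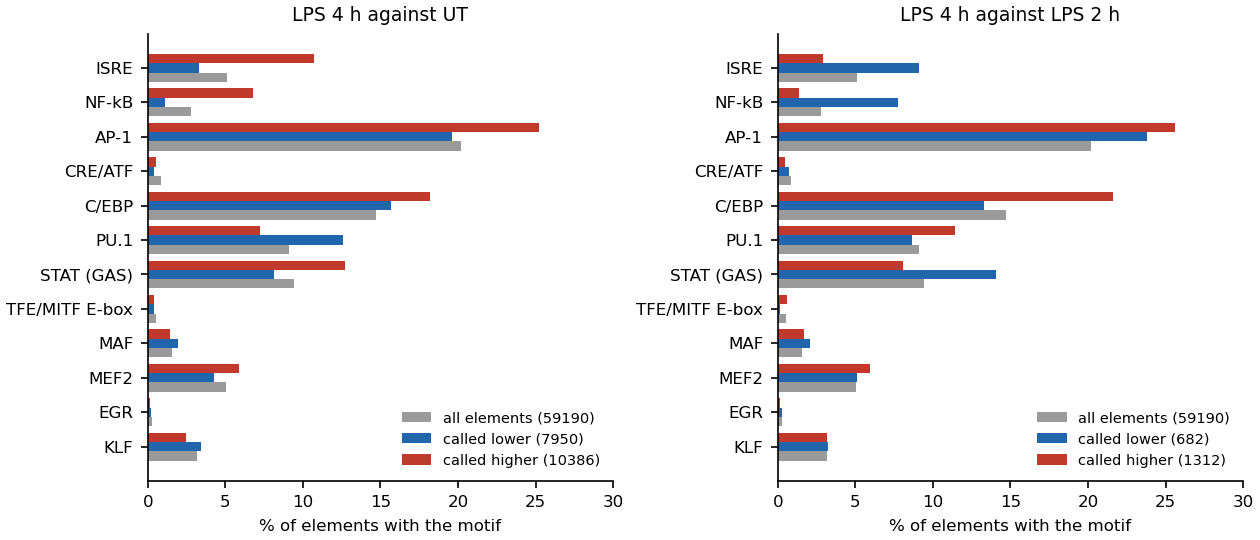
Share of elements, in percent, whose central 300 bases hold each of 12 motifs, for elements called higher (red), called lower (blue) and all 59190 elements (grey), in LPS 4 h against UT (left) and LPS 4 h against LPS 2 h (right). ISRE and NF-kB bars are longest for elements higher than UT on the left and for elements lower than at 2 h on the right.

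Between 2 h and 4 h few elements still moved. Against LPS 2 h, 1312 elements (2.22%) were higher and 682 (1.15%) lower at 4 h, from the same 10 libraries and sharing the LPS 4 h libraries with the comparison above. The split depends on the scaling, with 65.8% of the called elements higher as deposited, 58.7% after scaling to equal totals and 50.0% (981 and 981) after quantile normalization. It depends on single libraries too. Without LPS 4 h replicate 1, 616 were higher and 662 lower, and without replicate 2 the counts were 1357 and 394. Without LPS 2 h replicate 1 or 2, 336 and 367 were lower.

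Among the list promoters few were called against 2 h. In the lineage list 4 of 30 and in the lysosome list 2 of 24 were higher, and none were lower. Over all 11034 promoter elements 81 were higher and 45 lower. The lineage and lysosome medians were 0.15 and 0.41. Over all elements the median was 0.0498 as deposited and 0.0145 after scaling to equal totals. Lyz2, the gene of lysozyme, had 653 and 641 in UT, 124 and 132 at 2 h and 316 and 255 at 4 h (1.12 against 2 h, called). Cd68 had 1557 and 1546, 473 and 518, and 1284 and 1139 (1.28, called). Both were lowest at 2 h and had regained part of their signal. Cx3cr1 (1.5) and Ccr1 (1.05) of the lineage list, Tfeb (1.14) and Gpnmb (1.20) of the lysosome list, E2f1 (1.01) and the heme oxygenase gene Hmox1 (1.01) were also called higher at 4 h than at 2 h, and 21 of 24 lysosome promoters lay on that side of 0. Called lower were Il12b (-1.98), Cxcl1 (-1.88), Cxcl3 (-1.84), Il23a (-1.31) and the cystine transporter gene Slc7a11 (-1.29). The 32 antiviral promoters had a median of -0.10 against 2 h, with 25 of the 32 below 0. For some motifs the order of the shares was opposite to that against UT, with the ISRE in 2.90% of elements higher than at 2 h and 9.09% of those lower, NF-kB in 1.37% and 7.77%, STAT in 8.08% and 14.1%, and PU.1 in 11.4% and 8.65%. For C/EBP (21.6% and 13.3%) and AP-1 (25.6% and 23.8%) the order was the same in both comparisons.

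The largest rises from 2 h to 4 h were at repeated sequence. The 5 largest were nearest to Ccdc117, 4930467E23Rik, Pdia4, Kif3a and Unc93a2, with log2 differences between 2.54 and 3.62, and 96.4%, 79.3%, 97%, 55.5% and 71.8% of their 51-base stretches have a further copy in mm10. At Ccdc117 (chr11:5553981-5555598) the 2 h libraries were at 0 and 0, against 45 and 49 in UT and 87 and 36 at 4 h. Without LPS 4 h replicate 1 the difference at Kif3a was 2.01 and was not called (adjusted p = 0.0112). Of the 5 largest falls, that nearest to Zfp868 is repeated in 59.5% of such stretches. The other falls were at 2 intronic elements of Tmem266, at one near Cxcl5 and at one near Hs1bp3, from -2.75 to -2.41. The element in Tmem266 at chr9:55329937-55331628 had 6 and 1 in UT, 156 and 159 at 1 h, 85 and 106 at 2 h and 8 and 12 at 4 h, so the signal came and went.

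Against IL-4 for 4 h, which shares time in culture but not the ligand, 10675 elements (18%) were higher and 9054 (15.3%) lower after LPS. This comparison shares the LPS 4 h libraries with the one above, so values are set side by side only. Of the antiviral promoters 31 of 32 were higher than after IL-4, with a median of 1.74. Socs1, of the interferon factors, was not called, with 917 and 968 after IL-4 and 1103 and 1286 after LPS (0.34 ± 0.10), though UT was at 251 and 274. Arg1, the arginase gene of alternative activation, stood at 617 and 564 after IL-4, 83 and 56 after LPS and 123 and 141 in UT (-3.02 against IL-4, called). Pdcd1lg2, which encodes PD-L2, was at 300 and 267 after IL-4, 38 and 26 after LPS and 6 and 8 in UT (-2.98 against IL-4, called). Clec4e, a receptor of mycobacterial glycolipid, was at 47 and 57 after IL-4, below UT with 221 and 188, and at 717 and 579 after LPS.

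The same difference could be read in cells that had received a kinase inhibitor in place of DMSO, in libraries of their own. For 55 inhibitors there was at least 1 library each of LPS 4 h and UT, and 38 had exactly 1 of both, so a single inhibitor has no replicate error. Of the elements called higher in DMSO cells, between 56.6% (Talmapimod) and 99.6% (TG100572) had a positive difference within an inhibitor, with a median of 92.5%. Of those called lower, between 54.4% (PH797804) and 99.3% (Midostaurin) had a negative difference, with a median of 95.1%. The median log2 difference of elements called higher was 1.21 over inhibitors, against 1.84 in DMSO cells, and that of elements called lower was -1.15 against -1.54. The elements were chosen by their difference in DMSO cells, which favours larger values there, also for the gap given below. Whether inhibitors changed the size of the response was not tested. Some inhibitors were shifted as a whole, with medians over all elements from -0.751 (Talmapimod) to 0.893 (Pacritinib), and the cause was not tested. The gap between the medians of both sets is free of such a shift and was positive in all, from 1.42 (PH797804) to 2.89, against 3.38 in DMSO cells. The sign seen in DMSO cells was met in all 55 inhibitors at 23.1% of elements called higher, 32.2% of those called lower and 1.23% of those not called. Among the named promoters it was met in all 55 at Ccl5, Cxcl10, Il6, Il27, Nos2, Traf1, Ifit1, Zbp1, Cebpa, Trem2 and Apoe, and in 42 at Il12b and 46 at Cxcl3.

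**Figure D5:**
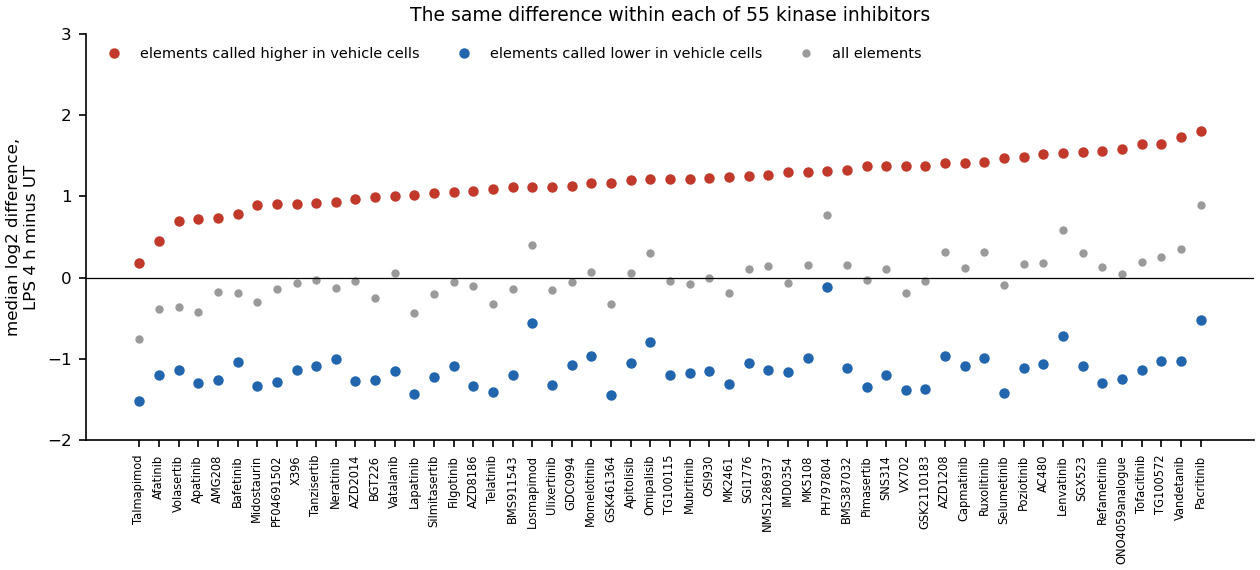
Median log2 difference, LPS 4 h minus UT, within each of 55 kinase inhibitors, ordered by the value of the red points: red, the 10386 elements called higher in DMSO cells; blue, the 7950 called lower; grey, all elements. Red points run from 0.187 to 1.80 and blue points from -1.51 to -0.113, with the red point above the blue point in every inhibitor.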

How the data were processed

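H3K27ac ChIP-seq of BMDMs was deposited as 1 table of normalized read counts, a score per element that the authors scaled by invariant regions and rounded to whole numbers. Reads had been mapped to mm10 with ShortStack, which can place repeated reads by their neighbours; the submitters' processing notes name Bowtie and SAMtools. The scaled values keep no read depth, so no count model was used.

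Groups were taken from the labels. log2(value + 5) of all 59190 elements in the 10 DMSO UT and LPS libraries (5 groups of 2) was fitted with limma 3.58.1 (trend, R 4.3.3), and LPS 4 h against UT and against LPS 2 h were read from that fit. LPS 4 h against IL-4 4 h came from the 18 DMSO libraries. An element was called at a log2 difference over 1 in size with a Benjamini-Hochberg adjusted p under 0.01. The limma script was tested on simulated data. Inhibitor differences and motif shares carry no test. Alternatives covered the pseudocount, a filter on low means, scaling, the libraries fitted, a replicate block, thresholds and leaving out each library.

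The gene lists, motifs and this comparison were chosen with earlier results of these data known. Named elements are the 10 largest rises and falls among called elements without overlap between groups, and the 5 largest of each in reads. They also include the 2 largest rises and falls called in each list and the 5 largest rises and falls against 2 h. By number of called elements the first 10 genes were named. Further list genes were named after their values were seen. Elements were assigned to protein-coding starts of the mm10 annotation, and repeats were counted as 51-base stretches with a further copy in mm10. Some genes of the lists are not reported here by name.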

Additional observations from a re-analysis of the deposited data

How the results depend on the processing

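For LPS 4 h against UT, 10386 elements were higher and 7950 lower. With a log2 difference over 2 required, 4475 and 1743 remained by construction, and the other alternatives stayed within 1.5 times of both counts. With only the 4 libraries of the comparison fitted, 9164 were higher and 7052 lower. Leaving out 1 library gave 8821 to 10018 higher and 6184 to 7634 lower. Against LPS 2 h, a pseudocount of 20 gave 740 higher and 417 lower in place of 1312 and 682, and leaving out 1 library gave 616 to 1357 higher and 336 to 662 lower; the cause was not tested. Against IL-4 4 h, leaving out 1 library gave 8956 to 10318 higher and 7814 to 8963 lower. With the central 600 bases in place of 300, shares among elements called higher and lower were 16.3% and 6.63% for the ISRE, 8.83% and 2.45% for NF-kB, 21.4% and 16.4% for STAT, 33.9% and 27.9% for AP-1, 29.1% and 26.2% for C/EBP, and 9.76% and 16.4% for PU.1, as a longer window holds more matches. Of 1184 values for the 74 named elements against UT, 43 lost their call, 25 of them where a log2 difference over 2 was required. The 1184 include 74 values each for a log2 difference over 0.5 and for an adjusted p under 0.05. These looser thresholds reuse the main fit, so no call could be lost there. Of 100 values for the 10 elements named against 2 h, 1 lost its call. No direction reversed, and none could where only a threshold was changed.

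With the replicate number as a replicate block, the counts were 10378 and 7928 against UT, 1299 and 669 against LPS 2 h, and 10667 and 9046 against IL-4 4 h. Deviations of same-numbered libraries correlated between -0.036 and 0.034 over 10 pairs of groups. Whether same-numbered libraries came from the same animals or cultures cannot be told from these values. With elements whose centre lies within 1 kb of a start, the immediate early, lineage and H3K27 acetylation lists had 0 promoters called higher in place of 1 each, as fewer of their genes (23, 25 and 14) had an element. Sequencing depth is unknown, and elements near 0 carry the largest errors.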
